A study of Mus musculus with 16 samples.

Results

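The genes of the translation initiation factors, the proteins that start protein synthesis, were followed on 16 microarrays, each hybridised with total RNA of 1 plate of cultured fibroblasts from mouse embryos. Members were all genes whose probe set carried exactly 1 symbol on the platform and whose symbol began with Eif1 to Eif6, without the kinase genes Eif2ak and the Y-linked Eif2s3y. Of several such probe sets of a gene, that with the highest mean signal (all 16 arrays) was used. This gave 44 genes of the 19938 tested: 9 whose symbols begin with Eif2, 11 with Eif3, 15 with Eif4, 4 with Eif5 and 5 with Eif1 or Eif6. No filter on low values was applied, so all 44 were tested. The role lists also held 7 genes that were not tested here: Eif1, Eif2s1, Eif3g and Eif4g1, and Eif3j1, Eif3j2 and Eif4ebp3, for which only probe sets with several symbols were found.

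The cells were of 2 kinds, with 8 plates of 10 cm each. Control cells were wild type with a scramble shRNA, and ATF5-KD cells stably expressed an shRNA against Atf5, which encodes an ATF/CREB-type transcription factor made in stressed cells. Both were grown in DMEM and kept for 8 h either in DMSO, the vehicle, or with MG132 at 1 µM, a blocker of the proteasome, and all were harvested at the same time, which gave 4 groups of 4 arrays. The comparisons ask what MG132 did in each line, how the lines differed in each treatment, and whether the responses to MG132 differed between the lines. The labels name plates and say neither that they were separate cultures nor how many clones the knockdown line holds, so p-values measure the spread between these plates, which may be technical.

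Values are log2 probe set signals. Array medians lay between 7.71 and 7.82, arrays of 1 group correlated across genes at r = 0.993 to 0.998, and precision is set by the number of arrays. Atf5, the labelled target, was lower in the knockdown line, with a log2 difference of -0.22 ± 0.05 with vehicle (limma adjusted p = 0.00321) and -0.31 ± 0.05 with MG132 (limma adjusted p = 0.000148). All 10 fibroblast markers were measured, with median levels of 11.43 in control and 11.28 in knockdown cells with vehicle and 10.71 and 10.61 with MG132, while Fap, one of them, read 5.03 to 5.08 in the 4 groups. With MG132 5 of the 10 fell in each line, and 1 rose in control and 2 in knockdown cells. Their summed levels went from 106.03 to 106.19 down to 103.73 to 103.93 in control and from 107.07 to 107.69 down to 105.19 to 105.77 in knockdown arrays. Summed levels of some marker lists of other cell types also differed between the lines. With vehicle, the 4 smooth muscle markers summed to 40.61 to 40.99 in control and 38.21 to 38.65 in knockdown arrays, and the 6 macrophage markers to 40.14 to 40.73 and 40.96 to 41.72. Single genes weighed heavily in these sums. The smooth muscle markers had a median line difference of -0.10 and a lowest of -2.07. Of the macrophage markers 3 were above and 3 below 0, with a median of -0.005 and a highest of 0.79. No level was set below which a marker counts as absent, so low readings such as that of Fap do not show expression. The part of these shifts in the differences given here was not tested.

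Initiation brings the ribosome to the start codon. eIF2 carries the initiator transfer RNA to the small ribosomal subunit and is recharged with GTP by the exchange factor eIF2B, a step that stress kinases block by phosphorylating eIF2. eIF4F, made of the cap-binding protein eIF4E, the scaffold eIF4G and the helicase eIF4A, opens the messenger's end, and eIF3 bridges it to the ribosome. eIF1 and eIF1A guide scanning, eIF5 triggers GTP hydrolysis at the start codon, and eIF5B joins the large subunit. Small binding proteins, encoded by the Eif4ebp genes, hold eIF4E away from eIF4G until the kinase mTORC1 phosphorylates them.

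Promoter windows of the RefSeq gene starts (build GRCm38.p6, mostly upstream of each start) were found for 34 of the 44 genes, 46 windows of 300 bases in all. They were searched on both strands for 3 words that do not overlap one another: TGATGNAA, the letters of the C/EBP-ATF response element, CACGTG, the E-box bound by factors of the MYC family, and TGACGTCA, the CRE bound by ATF/CREB proteins. CACGTG was in 11 of the 46 windows (23.9%), against 7.15% of the 32851 windows of all genes, and in 9 of the 34 members, against 8.09% of all genes. These 9 were Eif1b, Eif3a, Eif3f, Eif3k, Eif4a1, Eif4e, Eif4h, Eif5a and Eif5a2. TGATGNAA was in 1 of the 34 members, Eif2s3x, against 4.51% of all genes, and TGACGTCA in 0 of 34, against 2.03%. The stretches around the word in 3 of the 9 genes and in Eif2s3x follow, cut off before the gene's start, because their genes differ in the responses described next. Capitals mark the word, each stretch is written 5′ to 3′ on the gene's strand, and a match is a description of letters only.
Eif1b, chr9:120492552-120492605, plus strand: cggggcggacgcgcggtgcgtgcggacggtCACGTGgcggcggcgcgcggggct
Eif3f, chr7:108934317-108934382, plus strand: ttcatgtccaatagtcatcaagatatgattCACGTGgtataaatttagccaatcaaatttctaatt
Eif4e, chr3:138527174-138527239, plus strand: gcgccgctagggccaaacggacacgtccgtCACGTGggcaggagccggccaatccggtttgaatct
Eif2s3x, chrX:94212710-94212777, minus strand: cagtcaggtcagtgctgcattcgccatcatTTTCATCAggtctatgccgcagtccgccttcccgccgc
In Eif1b the word lies 24 bases before the start, in Eif3f 68, in Eif4e 64 and in Eif2s3x 96. The Eif4e window holds CACGTG once more, 228 bases before the start, in a stretch not printed here. Of the 9 genes with CACGTG, 3 rose and 3 fell with MG132 in control cells by the limma test described next. Of the 25 matched genes without it, 8 rose and 5 fell, and of all genes tested 16.8% rose and 19% fell. In knockdown cells 2 rose and 2 fell of the 9, and 10 and 3 of the 25, against 16.4% and 24.3% of all genes. In the line comparisons 0 of the 9 were higher and 2 lower with vehicle, and 1 and 3 with MG132. Of the 25, 2 were higher and 9 lower with vehicle (21.5% and 17.9% of all genes), and 5 and 8 with MG132 (17.7% and 20.3%). The word was not tested for a link with any of these.

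MG132 changed single initiation factor genes by small amounts and in both directions. In control cells the largest rises were in Eif2b4, a regulatory subunit of eIF2B (0.35 ± 0.05 on the log2 scale), Eif4ebp1, which restrains eIF4E (0.29 ± 0.04), and Eif1ad, a relative of eIF1A (0.28 ± 0.03). The largest falls were in Eif4ebp2, a relative of Eif4ebp1 (-0.35 ± 0.04), Eif4e3, a cap-binding protein (-0.29 ± 0.08), and Eif1b, a close copy of the start codon factor Eif1 (-0.24 ± 0.04). These 6 genes changed in the same direction in knockdown cells, and each passed in both lines under the 25 alternative settings tried. Here and throughout, ± after a difference is the limma standard error, each group has n = 4, and a gene is said to rise or fall where its limma p, Benjamini-Hochberg adjusted over all 19938 genes, is under 0.05. In bulk RNA, fewer cells of a type and less RNA per cell cannot be told apart.

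In control cells 14 of the 44 genes rose with MG132 and 10 fell, 24 in all. Of all genes tested, 16.8% rose and 19% fell, 35.8% in all. Among the 3081 genes at least as bright as the members' lower quartile, 60.7% changed, so the members' share stood above that of all genes and near that of bright ones. In knockdown cells 16 rose and 6 fell, against 16.4% and 24.3% of all genes, or 22 in all against 40.7%, and 63.8% of the bright genes changed. The arrays of the 2 treatments did not overlap in 23 members in control and 25 in knockdown cells, against 32.9% and 38.5% of all genes. The split depends on the scaling: with each array centred on its median, 6 rose and 12 fell in control and 8 rose and 9 fell in knockdown cells, and the members' median difference went from 0.02 to -0.03 and from 0.04 to -0.02. The first principal component of the arrays' deviations from their group means held 37.8% of the within-group variance. Without 4 arrays low on it (control MG132 4, knockdown vehicle 1, and control vehicle 1 and 4) 9 rose in control cells. Knockdown MG132 2 scored as low on it as control vehicle 4 (-4.27 in each) and was kept. Of the 44 genes, 16 changed in the same direction in both lines and 0 in opposite directions. The same count over all genes is not given here, so it is not read as particular to the members.

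**Figure D1:**
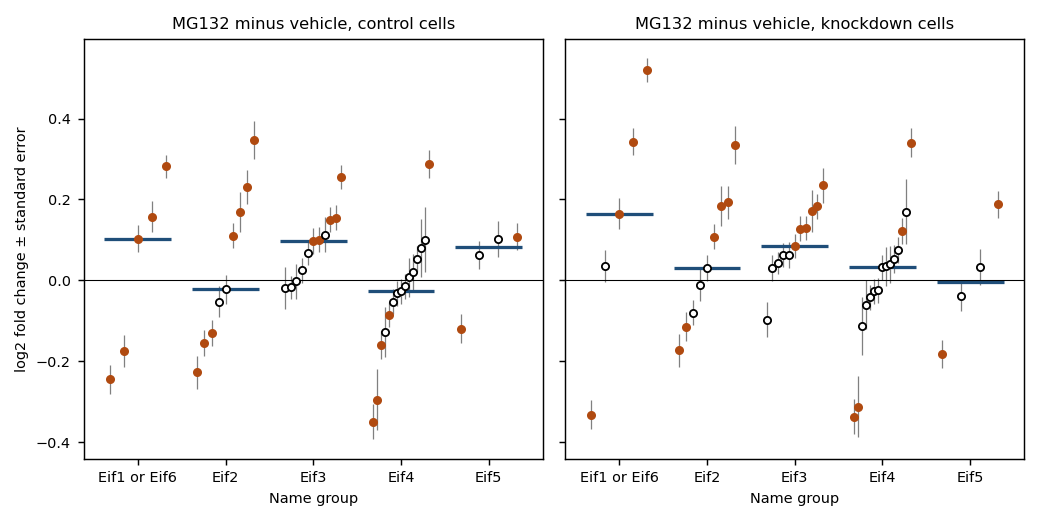
log2 fold change with MG132 (vertical axis, ± standard error) for each of the 44 genes by name group, control cells left and knockdown cells right; filled points passed the limma test, open points did not, and blue bars are group medians. In the Eif3 group 5 genes rose in control and 6 in knockdown cells and 0 fell, while with arrays centred on their medians 2 rose in each and 1, Eif3i, fell in knockdown cells. Of all genes 16.8% rose in control and 16.4% in knockdown cells on the deposited scale.

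By name group, the eIF3 subunit genes rose or did not pass. Of 11, 5 rose in control and 6 in knockdown cells and 0 fell, with medians of 0.10 and 0.09, beside 0.03 and 0.03 over all genes. With arrays centred on their medians 2 rose in each line and 1, Eif3i, fell in knockdown cells, with group medians of 0.04 and 0.03. The Eif2 group was split, with 4 up and 3 down in control and 4 up and 2 down in knockdown cells (medians -0.02 and 0.03, the latter -0.03 after centring). In the Eif4 group 1 rose and 4 fell in control and 2 rose and 2 fell in knockdown cells (medians -0.03 and 0.03, the latter also -0.03 after centring). Of the 4 Eif5 genes, 1 rose and 1 fell in each line. Of all genes 35.8% changed in control and 40.7% in knockdown cells, and of the bright genes 60.7% and 63.8%. The shares of Eif3 (45.5% and 54.5%) and Eif5 (50% in each) lay between these. Those of Eif2 (7 and 6 of 9 genes, 77.8% and 66.7%) lay above both, and those of Eif4 (5 and 4 of 15, 33.3% and 26.7%) below both. The groups are small, so these shares move with single genes and are not read as traits of the groups. After median centring Eif2a and Eif2s2 lost their calls in both lines, and Eif2b1 gained one in knockdown cells. Eif4a1 then gained calls in both lines and Eif4a3 in control cells, and Eif4enif1 lost its call in knockdown cells. These counts describe the groups and were not tested as sets.

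**Figure D2:**
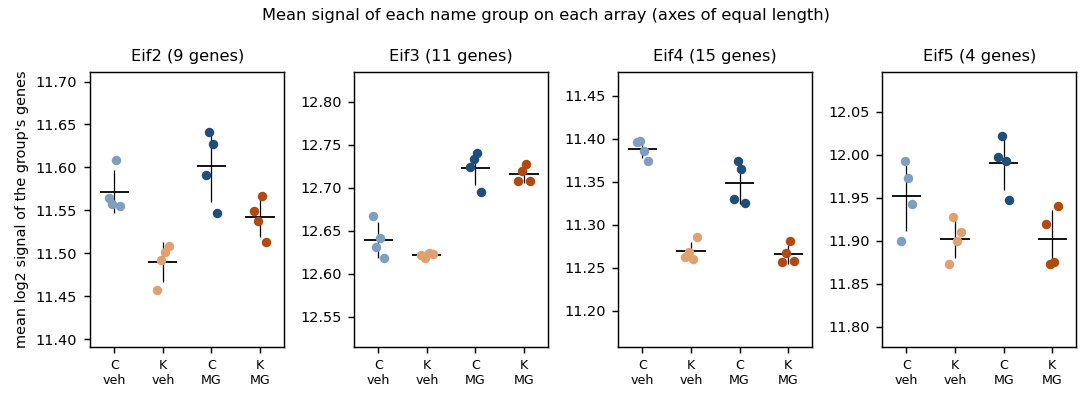
Mean log2 signal over the genes of each name group (vertical axis) on each of the 16 arrays, by line (C control, K knockdown) and treatment; bars are the mean and SD of 4 arrays, and axes have equal length. The Eif3 means were 12.64 and 12.62 with vehicle and 12.72 and 12.72 with MG132 on the deposited scale, and the Eif4 means fell apart by line, 11.39 against 11.27 with vehicle, a gap carried by Eif4g3.

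The group means over genes showed the same on each array. The eIF3 mean was 12.64 ± 0.02 (SD, n = 4) in control cells with vehicle and 12.72 ± 0.02 with MG132, and the 4 treated arrays (12.69 to 12.74) lay above the 4 vehicle arrays (12.62 to 12.67). In knockdown cells it was 12.62 ± 0.0024 (SD, n = 4) and 12.72 ± 0.01, again without overlap. The Eif2 mean was 11.57 ± 0.03 (SD, n = 4) in control and 11.49 ± 0.02 in knockdown cells with vehicle, and the lines did not overlap there. With MG132 it was 11.60 ± 0.04 (SD, n = 4) and 11.54 ± 0.02, and the lines overlapped. The Eif4 mean was 11.39 ± 0.01 (SD, n = 4) in control and 11.27 ± 0.01 in knockdown cells with vehicle, but without Eif4g3 it was 11.37 ± 0.01 in both. With MG132 and without Eif4g3 it was 11.32 ± 0.02 (SD, n = 4) in control and 11.36 ± 0.01 in knockdown cells, where the knockdown arrays were higher without overlap. The Eif5 mean stayed between 11.90 and 11.99, and its lines overlapped with vehicle and not with MG132.

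The lines differed most in Eif4g3, which encodes a scaffold of eIF4F: its signal was 3.58-fold lower in knockdown cells with vehicle and 3.53-fold lower with MG132. Eif1a, the scanning factor eIF1A, was 1.52-fold and 1.29-fold lower. Eif4e3 was 1.40-fold and 1.39-fold higher, and Eif3c, an eIF3 core subunit, was 1.27-fold and 1.17-fold higher. With vehicle 4 of the 44 genes were higher in knockdown cells and 13 were lower, against 21.5% and 17.9% of all genes, 17 in all against 39.4%, and against 62.1% of the bright genes. With MG132 9 were higher and 13 lower, against 17.7% and 20.3%, 22 in all against 38.1%, and against 58.8% of the bright genes. Arrays of the lines did not overlap in 19 members with vehicle and 21 with MG132, against 38.7% and 34.7% of all genes. With arrays centred on their medians, the MG132 split became 9 higher and 9 lower, and that with vehicle 4 and 11. Line differences of 15 genes passed with the same sign in both treatments, a count that is not given here for all genes.

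**Figure D3:**
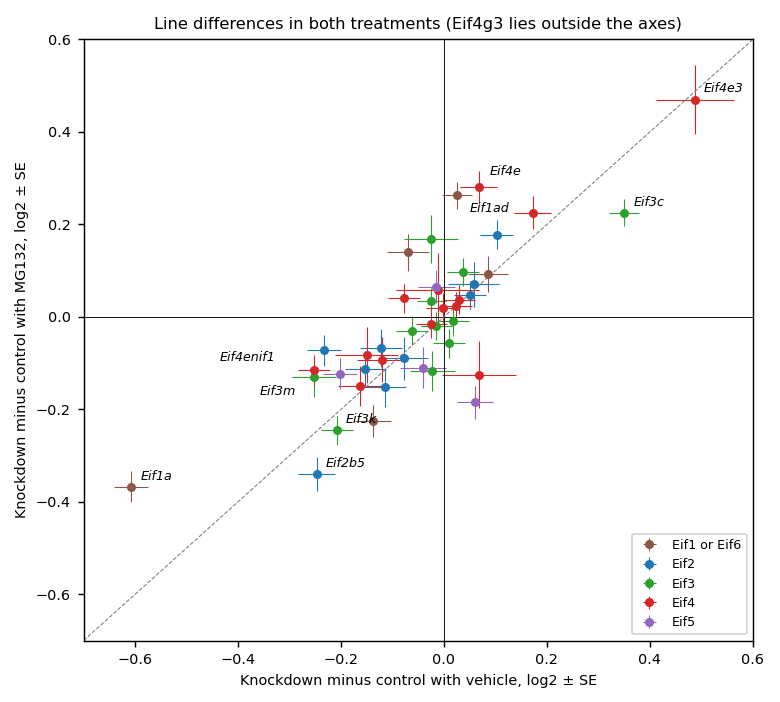
Line difference of each gene with vehicle (horizontal axis) against that with MG132 (vertical axis), knockdown minus control, log2 ± standard error, coloured by name group; the dashed line marks equal differences. Eif4g3 (-1.84 and -1.82) lies outside the axes, Eif1a stands at the lower left (-0.61 and -0.37) and Eif4e3 at the upper right (0.49 and 0.47).

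The difference of the responses, knockdown minus control, passed in 7 genes, 6 of them more positive in knockdown cells and 1, Eif5a2, more negative. Of all genes 14.6% passed, 4.45% with a more positive and 10.1% with a more negative response, and 16.9% of the bright genes passed. Of the 3081 bright genes, 293 had a more positive and 227 a more negative response, so the lean of all genes to negative was not seen there. Eif1a and Eif1ad rose further in knockdown cells, by 0.24 ± 0.05 and 0.24 ± 0.04. Eif1ax, the X-linked gene of eIF1A, Eif4e and Eif2b3, an eIF2B subunit, fell in control cells and not in knockdown cells. With arrays centred on their medians 3 were more positive and 1 more negative, and Eif1a, Eif1ad, Eif5a2 and Eif4e were those kept. Without the 4 arrays low on the within-group gradient 3 were more positive. This difference uses all 4 groups, so it shares its arrays with each of the comparisons above.

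Among the scanning factors, Eif1a changed with both line and treatment. With vehicle, Eif1a read 11.52, 11.61, 11.62 and 11.55 in control and 10.91, 11.00, 10.96 and 11.00 in knockdown cells. With MG132, Eif1a read 11.65, 11.68, 11.72 and 11.66 and 11.28, 11.32, 11.33 and 11.31. The 4 groups did not overlap, and knockdown cells with vehicle were lowest. MG132 raised it by 0.10 ± 0.03 in control (limma adjusted p = 0.0236) and 0.34 ± 0.03 in knockdown cells (limma adjusted p = 2.78e-07). The line difference was -0.61 ± 0.03 with vehicle (limma adjusted p = 1.3e-10) and -0.37 ± 0.03 with MG132. The rise in control cells was lost without control vehicle 1 (limma adjusted p = 0.0744), control vehicle 4 (0.0648) or control MG132 3 (0.0697) and with arrays centred on their medians (0.05, limma adjusted p = 0.452), and also without the 4 arrays on the gradient (0.204) and with the compared groups fitted alone (0.0731). Further probe sets list Eif1a together with 7 other symbols and were not used, so signal of near copies cannot be told apart there.

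Eif1ad moved with MG132 in both lines, and further in knockdown cells. Control cells read 11.58, 11.57, 11.56 and 11.59 with vehicle and 11.81, 11.86, 11.88 and 11.88 with MG132 for Eif1ad. Knockdown cells read 11.61, 11.58, 11.61 and 11.60 and 12.12, 12.14, 12.14 and 12.08 for it. The lines overlapped with vehicle and separated with MG132, where all 4 knockdown arrays were higher. It rose by 0.28 ± 0.03 and 0.52 ± 0.03 (limma adjusted p = 4.49e-07 and 3.72e-10), and the responses differed by 0.24 ± 0.04 (limma adjusted p = 0.000848).

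Eif1ax went the other way in control cells. Its values in control cells were 12.45, 12.57, 12.51 and 12.55 with vehicle and 12.34, 12.37, 12.40 and 12.27 with MG132. In knockdown cells Eif1ax read 12.42, 12.46, 12.43 and 12.49 and 12.54, 12.43, 12.43 and 12.54. The control groups separated and the knockdown groups overlapped. Eif1ax fell in control cells by 0.17 ± 0.04 (limma adjusted p = 0.00215), and the knockdown value of 0.04 ± 0.04 did not pass (limma adjusted p = 0.511). The responses differed by 0.21 ± 0.06 (limma adjusted p = 0.0196), which missed the threshold with arrays centred on their medians (0.0529) and without the 4 arrays on the gradient (0.0541). Eif1b fell in both lines and was lower in knockdown cells. With vehicle, Eif1b read 11.45, 11.47, 11.42 and 11.39 in control and 11.30, 11.28, 11.30 and 11.30 in knockdown cells. With MG132, Eif1b read 11.16, 11.24, 11.20 and 11.15 and 10.91, 11.05, 10.96 and 10.93. The 4 groups formed 4 levels that did not overlap, and the changes with MG132 were -0.24 ± 0.04 and -0.33 ± 0.04 (limma adjusted p = 2.46e-05 and 7.05e-07).

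**Figure D4:**
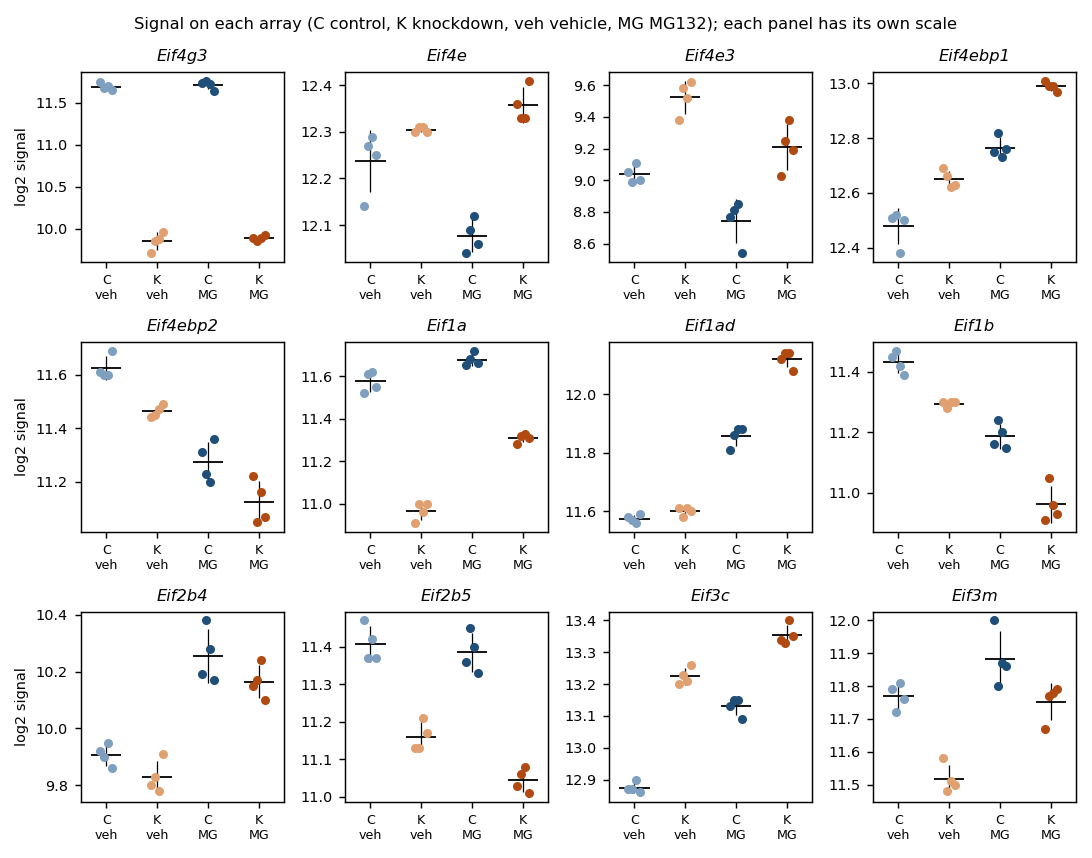
log2 signal of 12 genes on each array (vertical axes, each panel on its own scale), by line (C control, K knockdown) and treatment (veh vehicle, MG MG132); bars are the mean and SD of 4 arrays. Eif4g3 falls into 2 levels by line (9.71 to 9.96 in knockdown and 11.64 to 11.76 in control cells), Eif4ebp1 and Eif4ebp2 move in opposite directions with MG132, and Eif4e separates the lines with MG132.

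Of the subunits of eIF2 itself, Eif2s2 (beta) and Eif2s3x (gamma, X-linked) were tested. With vehicle, Eif2s2 read 12.35, 12.48, 12.50 and 12.37 in control and 12.40, 12.53, 12.53 and 12.47 in knockdown cells. With MG132, Eif2s2 read 12.58, 12.58, 12.71 and 12.51 and 12.73, 12.64, 12.60 and 12.69. The treated arrays were higher without overlap in both lines, and the lines overlapped. Eif2s2 rose by 0.17 ± 0.05 and 0.18 ± 0.05 (limma adjusted p = 0.0118 and 0.00657), and with arrays centred on their medians both were lost (0.12 in each, limma adjusted p = 0.127 and 0.101), the first also without the 4 arrays on the gradient (0.0680). A second probe set of Eif2s2 gave 0.08 and 0.06, neither passing, and was higher in knockdown cells (0.16 with vehicle and 0.14 with MG132, limma adjusted p = 0.0192 and 0.0407).

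Eif2s3x was lower in knockdown cells and showed no call with MG132. With vehicle, Eif2s3x read 13.51, 13.64, 13.63 and 13.61 in control and 13.35, 13.45, 13.48 and 13.50 in knockdown cells. With MG132, Eif2s3x read 13.56, 13.57, 13.57 and 13.48 and 13.42, 13.43, 13.46 and 13.42. All knockdown arrays lay below all control arrays in each treatment. The line differences were -0.15 ± 0.04 (limma adjusted p = 0.00457) and -0.11 ± 0.04 (limma adjusted p = 0.0323). The second was lost without control MG132 1, 2 or 3 or knockdown MG132 1, 2 or 4 (limma adjusted p = 0.0632 to 0.0777) and after median centring (0.15).

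The 5 subunits of the exchange factor eIF2B did not move together. Eif2b4 and Eif2b2, regulatory subunits, rose in both lines, Eif2b1, also a regulatory subunit, fell in control cells, and the catalytic subunits Eif2b3 and Eif2b5 were lower in knockdown cells with vehicle. Control cells read 9.92, 9.90, 9.95 and 9.86 with vehicle and 10.19, 10.38, 10.28 and 10.17 with MG132 for Eif2b4. In knockdown cells Eif2b4 read 9.80, 9.83, 9.78 and 9.91 and 10.15, 10.17, 10.24 and 10.10. Treated arrays lay above vehicle arrays without overlap in each line, by 0.35 ± 0.05 and 0.34 ± 0.05 (limma adjusted p = 1.27e-05 and 1.65e-05), and the lines overlapped. Eif2b2 rose by 0.23 ± 0.04 and 0.19 ± 0.04 and was lower in knockdown cells with vehicle (-0.12), a call lost when control vehicle 1 or 3, or knockdown vehicle 1, 2 or 3, was left out (limma adjusted p = 0.0520 to 0.128), after median centring (0.182) and without the 4 arrays on the gradient (0.0673).

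Eif2b5, whose product catalyses the exchange, differed mainly by line. With vehicle, Eif2b5 read 11.47, 11.37, 11.42 and 11.37 in control and 11.13, 11.13, 11.21 and 11.17 in knockdown cells. With MG132, Eif2b5 read 11.36, 11.45, 11.40 and 11.33 and 11.03, 11.06, 11.08 and 11.01. Knockdown arrays were lower without overlap, with differences of -0.25 ± 0.04 and -0.34 ± 0.04 (limma adjusted p = 2.19e-05 and 6.28e-07). Its fall with MG132 in knockdown cells, -0.12 ± 0.04 (limma adjusted p = 0.0166), was lost without knockdown vehicle 3 (0.0621). Eif2b1 was the eIF2B gene that was higher in knockdown cells. With vehicle, Eif2b1 read 11.23, 11.15, 11.19 and 11.17 in control and 11.28, 11.26, 11.32 and 11.29 in knockdown cells. With MG132, Eif2b1 read 11.03, 11.02, 11.05 and 11.02 and 11.25, 11.21, 11.23 and 11.14. The control values with MG132 were the lowest of the 16. Eif2b1 was higher in knockdown cells by 0.10 ± 0.03 (limma adjusted p = 0.0151, or 0.0531 without knockdown vehicle 3) and 0.18 ± 0.03 (limma adjusted p = 0.000197), and it fell in control cells by 0.15 ± 0.03. Eif2b3 fell in control cells (-0.13 ± 0.03), did not pass in knockdown cells (0.03 ± 0.03), and its responses differed by 0.16 ± 0.05 (limma adjusted p = 0.0274). That call was lost without any 1 of control vehicle 3 or 4, knockdown vehicle 3, control MG132 1 and knockdown MG132 1 or 4 (limma adjusted p = 0.0510 to 0.0666), with the replicate number as a block (0.0546), after median centring (0.0798) and without the 4 arrays on the gradient (0.0930). The fall in control cells was lost in the last setting (0.0552).

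Eif2a and Eif2d encode proteins that can bring initiator transfer RNA without eIF2. Eif2a rose by 0.11 ± 0.03 and 0.11 ± 0.03, both lost after median centring (0.06 and 0.05, limma adjusted p = 0.290 and 0.376) and the first without the 4 arrays on the gradient (0.103), and Eif2d fell. With vehicle, Eif2d read 10.63, 10.51, 10.57 and 10.53 in control and 10.39, 10.44, 10.47 and 10.45 in knockdown cells. With MG132, Eif2d read 10.34, 10.40, 10.33 and 10.26 and 10.21, 10.28, 10.35 and 10.22. Treated arrays lay below vehicle arrays in each line, with changes of -0.23 ± 0.04 and -0.17 ± 0.04 (limma adjusted p = 0.000235 and 0.00239). With vehicle Eif2d was lower in knockdown cells (-0.12), a call lost without control vehicle 1 (limma adjusted p = 0.0819), control vehicle 3 (0.0526) or knockdown vehicle 1 (0.0669), without the 4 arrays on the gradient (0.195) and after median centring (0.133).

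Among the eIF3 subunits, Eif3c rose in both lines and was higher in knockdown cells. Control cells read 12.87, 12.87, 12.90 and 12.86 with vehicle and 13.13, 13.15, 13.15 and 13.09 with MG132 for Eif3c. In knockdown cells Eif3c read 13.20, 13.23, 13.21 and 13.26 and 13.34, 13.33, 13.40 and 13.35. The 4 groups formed 4 levels without overlap. It rose by 0.26 ± 0.03 and 0.13 ± 0.03 (limma adjusted p = 2.07e-06 and 0.00164), the second lost after median centring (0.07, limma adjusted p = 0.197), and the line differences were 0.35 ± 0.03 and 0.23 ± 0.03 (limma adjusted p = 3.09e-08 and 7.27e-06). The difference of its responses, -0.12 ± 0.04, did not pass (limma adjusted p = 0.0545), but passed under 6 of 24 alternative settings (0.00355 to 0.0347), among them leaving out control MG132 4 or knockdown MG132 3.

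Eif3k and Eif3m were lower in knockdown cells. With vehicle, Eif3k read 12.20, 12.09, 12.15 and 12.13 in control and 11.95, 11.92, 11.92 and 11.95 in knockdown cells. With MG132, Eif3k read 12.22, 12.24, 12.24 and 12.27 and 12.04, 11.96, 12 and 11.99. Every knockdown array lay below every control array, with differences of -0.21 ± 0.03 and -0.24 ± 0.03 (limma adjusted p = 3.04e-05 and 5.34e-06). Its rise in control cells, 0.10 ± 0.03 (limma adjusted p = 0.0179), was lost without control vehicle 2 (0.0665), with the compared groups alone (0.0700) and after median centring (0.05, limma adjusted p = 0.389). For Eif3m, vehicle arrays read 11.79, 11.72, 11.81 and 11.76 in control and 11.58, 11.48, 11.51 and 11.50 in knockdown cells. With MG132, Eif3m read 12, 11.80, 11.87 and 11.86 and 11.67, 11.77, 11.78 and 11.79. The lines separated in both treatments. Eif3m rose in knockdown cells by 0.23 ± 0.04 (limma adjusted p = 0.000260), and its control value of 0.11 ± 0.04 missed the threshold (limma adjusted p = 0.0531) but passed under 7 of 25 alternative settings (0.00678 to 0.0493), among them leaving out knockdown vehicle 1, control MG132 2 or knockdown MG132 1. It was lower in knockdown cells, -0.25 ± 0.04 with vehicle and -0.13 ± 0.04 with MG132 (limma adjusted p = 0.000121 and 0.0243), the latter lost without control MG132 1 (0.101) or knockdown MG132 1 (0.0918) and with the compared groups alone (0.0734). A second probe set of Eif3m rose in both lines (0.20 and 0.32, limma adjusted p = 0.00616 and 8.8e-05) and was lower in knockdown cells (-0.40 and -0.28).

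Of the other eIF3 genes, Eif3a, the largest subunit, rose by 0.15 ± 0.03 and 0.18 ± 0.03 (limma adjusted p = 0.000878 and 0.000120). Eif3f rose by 0.15 ± 0.03 and 0.13 ± 0.03, both lost after median centring (limma adjusted p = 0.0564 and 0.217). Eif3l rose in control cells (0.10 ± 0.03, limma adjusted p = 0.0223), which was lost without control vehicle 2 or 4 or control MG132 2 or 3 (0.0523 to 0.0632), without the 4 arrays on the gradient (0.0617), with the compared groups alone (0.0620) and after median centring (0.474). Eif3e rose in knockdown cells (0.17 ± 0.05, limma adjusted p = 0.0131), a call lost after median centring (0.144). Eif3b and Eif3h passed in none of the 5 comparisons, though Eif3h rose in control cells under 3 of 25 alternative settings (limma adjusted p = 0.0103 to 0.0481) and in knockdown cells under 1 (0.0158). The 95% intervals of Eif3b were -0.08 to 0.04 for MG132 in control and -0.02 to 0.10 in knockdown cells.

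In the eIF4F complex the scaffold Eif4g3 was the gene most changed. With vehicle, Eif4g3 read 11.75, 11.67, 11.70 and 11.65 in control and 9.71, 9.86, 9.88 and 9.96 in knockdown cells. With MG132, Eif4g3 read 11.73, 11.76, 11.72 and 11.64 and 9.89, 9.86, 9.89 and 9.93. The 8 knockdown arrays lay far below the 8 control arrays, and the treatments overlapped within each line. The line differences were -1.84 ± 0.05 and -1.82 ± 0.05 (limma adjusted p = 3.47e-15 and 6.27e-15), and those with MG132 0.02 ± 0.05 and 0.04 ± 0.05, neither passing (limma adjusted p = 0.784 and 0.510). A second quantile normalization gave 0.12 in knockdown cells (limma adjusted p = 0.0211). Eif4g2, a relative that lacks the eIF4E-binding part, passed in none of the 5, with a 95% interval of -0.03 to 0.09 for the line difference with vehicle.

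The cap-binding genes differed from one another. With vehicle, Eif4e read 12.14, 12.27, 12.29 and 12.25 in control and 12.30, 12.31, 12.31 and 12.30 in knockdown cells. With MG132, Eif4e read 12.04, 12.09, 12.12 and 12.06 and 12.36, 12.33, 12.33 and 12.41. Control arrays with MG132 were the lowest and knockdown arrays with MG132 the highest. Eif4e fell in control cells by 0.16 ± 0.04 (limma adjusted p = 0.00166), did not pass in knockdown cells (0.05 ± 0.04, limma adjusted p = 0.257), and the responses differed by 0.21 ± 0.05 (limma adjusted p = 0.00901). This rests on the brightest of its 3 probe sets: the next one gave -0.01 and 0.00, and the dimmest rose in both lines (0.18 and 0.24, limma adjusted p = 0.00238 and 0.000140). With the mean of the 3, the value in control cells was 0.00 (limma adjusted p = 0.979) that in knockdown cells 0.10 (limma adjusted p = 0.0351) and the difference of the responses 0.10 (limma adjusted p = 0.239). The sources used here do not give which parts of the transcript these probe sets read.

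Eif4e3 was higher in knockdown cells and fell with MG132. With vehicle, Eif4e3 read 9.05, 8.99, 9.11 and 9 in control and 9.38, 9.58, 9.52 and 9.62 in knockdown cells. With MG132, Eif4e3 read 8.77, 8.81, 8.85 and 8.54 and 9.03, 9.25, 9.38 and 9.19. The lines did not overlap, while in knockdown cells 1 treated array (9.38) met the lowest vehicle array. The line differences were 0.49 ± 0.08 and 0.47 ± 0.08 (limma adjusted p = 4.15e-05 and 6.56e-05) and the falls 0.29 ± 0.08 and 0.31 ± 0.08 (limma adjusted p = 0.00478 and 0.00275). Eif4e2, a cap-binding protein that does not take up eIF4G, fell in control cells by 0.09 ± 0.03 (limma adjusted p = 0.0419), a call lost when any of control vehicle 1 to 3, control MG132 1, 3 or 4, knockdown vehicle 2 or 3 and knockdown MG132 1 was left out (0.0502 to 0.108), with array weights (0.0544), without the 4 arrays on the gradient (0.0770) and with the compared groups alone (0.120). Eif4e1b, the oocyte form, read 7.81 to 7.98 as group means and passed in none, though in knockdown cells with MG132 it was higher under 4 of 25 alternative settings (limma adjusted p = 0.00352 to 0.0473).

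The genes of proteins that hold eIF4E moved in opposite directions. With vehicle, Eif4ebp1 read 12.51, 12.52, 12.38 and 12.50 in control and 12.69, 12.66, 12.62 and 12.63 in knockdown cells. With MG132, Eif4ebp1 read 12.75, 12.82, 12.73 and 12.76 and 13.01, 12.99, 12.99 and 12.97. The 4 groups did not overlap, lowest in control cells with vehicle and highest in knockdown cells with MG132. Eif4ebp1 rose by 0.29 ± 0.04 and 0.34 ± 0.04 (limma adjusted p = 4.61e-06 and 5.97e-07) and was higher in knockdown cells by 0.17 ± 0.04 and 0.23 ± 0.04 (limma adjusted p = 0.000703 and 5.68e-05). For Eif4ebp2, vehicle arrays read 11.61, 11.60, 11.60 and 11.69 in control and 11.44, 11.45, 11.47 and 11.49 in knockdown cells. With MG132, Eif4ebp2 read 11.31, 11.23, 11.20 and 11.36 and 11.22, 11.05, 11.16 and 11.07. Its order was the reverse, highest in control cells with vehicle, and the lines overlapped with MG132. Eif4ebp2 fell by 0.35 ± 0.04 and 0.34 ± 0.04 (limma adjusted p = 5.24e-06 and 6.83e-06). It was lower in knockdown cells, -0.16 ± 0.04 and -0.15 ± 0.04 (limma adjusted p = 0.00604 and 0.0110), the first lost without the 4 arrays on the gradient (0.0781). The responses of the 2 genes were not shown to differ between the lines (0.05 ± 0.05 and 0.01 ± 0.06, 95% intervals -0.05 to 0.16 and -0.12 to 0.14).

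Eif4enif1, whose product carries eIF4E into the nucleus and into processing bodies, was lower in knockdown cells. With vehicle, Eif4enif1 read 11.21, 11.17, 11.18 and 11.19 in control and 10.90, 10.94, 10.94 and 10.96 in knockdown cells. With MG132, Eif4enif1 read 11.17, 11.21, 11.21 and 11.10 and 11.05, 11.03, 11.06 and 11.09. Knockdown arrays with vehicle were the lowest, and the lines did not overlap in either treatment. The line differences were -0.25 ± 0.03 and -0.12 ± 0.03 (limma adjusted p = 4.06e-06 and 0.00740), the second lost after median centring (0.0621) and with the mean of its probe sets (0.135). The difference of its responses, 0.14 ± 0.04 (limma adjusted p = 0.0497), was lost under 18 of 24 alternative settings, among them leaving out any 1 array other than control MG132 2 and 3 (0.0570 to 0.0944). The helicase genes Eif4a1, Eif4a2 and Eif4a3, the copy Eif4a3l1 and the cofactors Eif4b and Eif4h passed in none of the 5 comparisons. Some of these did under alternative settings: with vehicle Eif4a2 was lower in knockdown cells under 9 of 25 (limma adjusted p = 0.00936 to 0.0481) and Eif4a3 under 6 (0.0229 to 0.0491). With MG132 Eif4a2 was lower there under 2 (0.0344 and 0.0483). Eif4a1 and Eif4a3 fell with MG132 in control cells under 3 and 2 (limma adjusted p = 0.0269 to 0.0477), Eif4a1 fell in knockdown cells under 1 (0.0421), and Eif4b rose there under 3 (0.0112 to 0.0463). For Eif4h the 95% interval was -0.09 to 0.04 for MG132 in each line. The 2 other probe sets of Eif4a1 fell in control cells (-0.09 and -0.12, limma adjusted p = 0.0269 and 0.0038).

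In the last steps of initiation, Eif5, which triggers hydrolysis by eIF2, rose by 0.11 ± 0.03 and 0.19 ± 0.03 (limma adjusted p = 0.0174 and 0.000184) and was lower in knockdown cells (-0.20 ± 0.03 with vehicle and -0.12 ± 0.03 with MG132). Its rise in control cells was lost without control vehicle 1 (limma adjusted p = 0.0600) or 4 (0.0562), without the 4 arrays on the gradient (0.182), with the compared groups alone (0.0696) and after median centring (0.375). Its line difference with MG132 was lost after median centring (0.0520). Eif5a2, a copy of the factor eIF5A that helps ribosomes past stalls, was the member whose response was more negative in knockdown cells. With vehicle, Eif5a2 read 10.76, 10.86, 10.83 and 10.87 in control and 10.86, 10.90, 10.91 and 10.89 in knockdown cells. With MG132, Eif5a2 read 10.92, 10.91, 10.84 and 10.90 and 10.77, 10.65, 10.70 and 10.71. The lines overlapped with vehicle, and with MG132 the knockdown arrays were lower without overlap. Eif5a2 did not pass in control cells (0.06 ± 0.03, limma adjusted p = 0.193), fell in knockdown cells by 0.18 ± 0.03 (limma adjusted p = 0.000381), and the responses differed by -0.24 ± 0.05 (limma adjusted p = 0.00295). Eif5a fell in control cells by 0.12 ± 0.04 (limma adjusted p = 0.0136, or 0.0537 without control vehicle 2). A second probe set of Eif5a was lower in knockdown cells with vehicle (-0.17, limma adjusted p = 0.00100), which the one used was not (-0.01 ± 0.04). In control cells the second probe set did not pass with MG132 (-0.08, limma adjusted p = 0.115). Its difference of the responses passed (0.16, limma adjusted p = 0.0485), and that of the one used did not (0.08). Eif5b, the subunit-joining factor, passed in none of the 5, though with MG132 it was lower in knockdown cells under 7 of 25 alternative settings (limma adjusted p = 0.0105 to 0.0459) and it rose in control cells under 2 (0.0165 and 0.0197). Eif6, which keeps the large subunit from joining too early, rose by 0.16 ± 0.04 and 0.17 ± 0.04 (limma adjusted p = 0.00382 and 0.00236). Both rises were lost after median centring (0.105 in each line, limma adjusted p = 0.0620 and 0.0558).

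**Figure D5:**
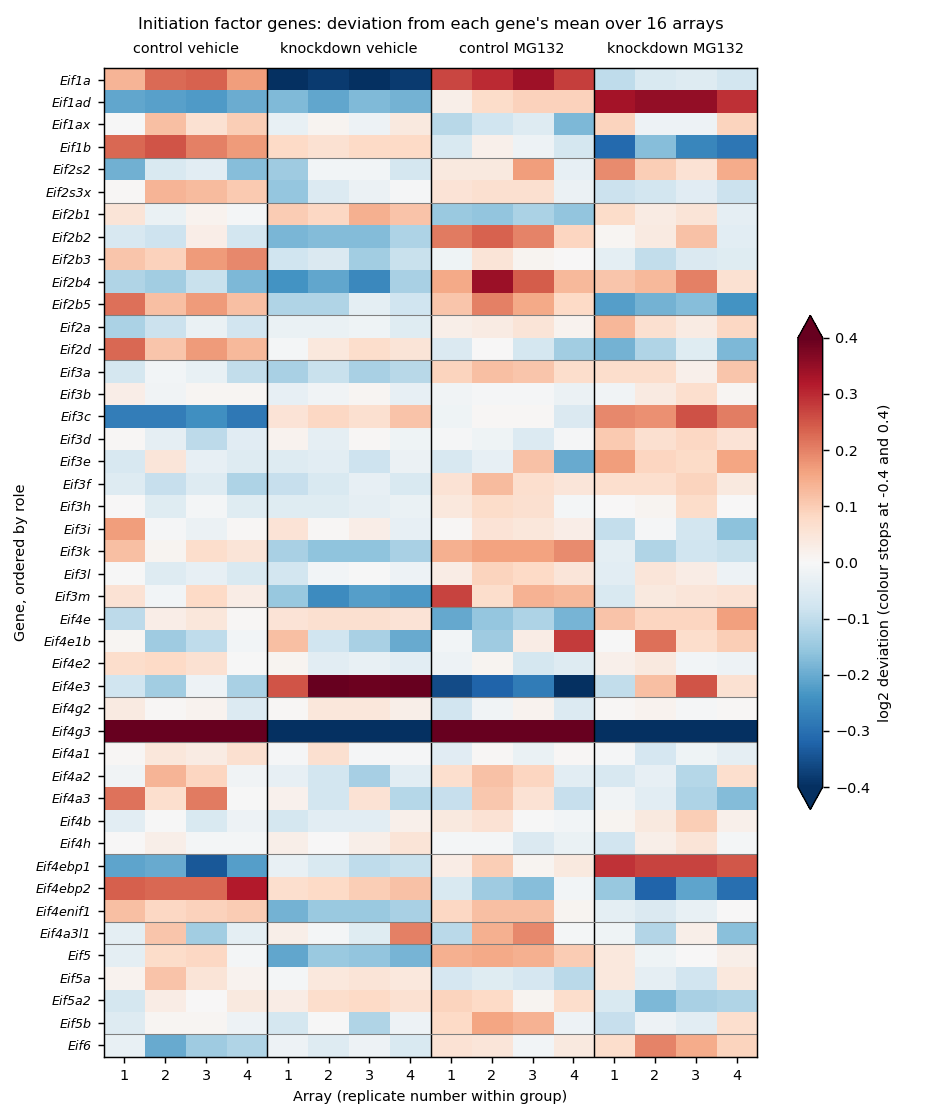
Deviation of each of the 44 genes (rows, by role) from its own mean over the 16 arrays (columns, 4 per group), in log2 units, with colour stopping at -0.4 and 0.4. Eif4g3 and Eif1a split by line, Eif4ebp1 and Eif4ebp2 run in opposite directions from the first to the last group, and the helicase rows are nearly flat.

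Over the 5 comparisons, 33 of the 44 genes passed in at least 1 and 11 in none. The same count over all genes is not given here. In single comparisons 14.6% to 40.7% of all genes passed, so these counts are not read as particular to the members. Called differences reached 1.5-fold in 2 genes, Eif4g3 and Eif1a. The standard errors of the members were 0.03 to 0.08 for the first 4 comparisons and 0.04 to 0.11 for the difference of the responses, so a difference of responses must be larger to pass.

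Among genes that act on these factors, a few had larger changes than any member with MG132. Of 9 genes of eIF2 kinases, of the phosphatase that opposes them and of their regulators, 3 rose and 1 fell in control and 3 rose and 3 fell in knockdown cells. That is 4 and 6 called, where 35.8% and 40.7% of all genes and 60.7% and 63.8% of bright genes were. The 4 kinase genes among them had differences of -0.04 to 0.08 in control cells. In knockdown cells the group means of all 4 were lower with MG132 than with vehicle. They went from 10.965 to 10.86 (Eif2ak1), 10.12 to 9.93 (Eif2ak2), 9.44 to 9.33 (Eif2ak3) and 9.91 to 9.765 (Eif2ak4). Arrays of the 2 treatments overlapped there in Eif2ak1, Eif2ak2 and Eif2ak3 and not in Eif2ak4. Ppp1r15b was among the 3 genes of the list that fell in knockdown cells, so not all 4 kinase genes passed. Ppp1r15a, the inducible subunit that directs dephosphorylation of eIF2, rose by 1.71 ± 0.04 in control and 2.06 ± 0.04 in knockdown cells, and the responses differed by 0.35 ± 0.06 (limma adjusted p = 0.000639). Impact, an inhibitor of the kinase GCN2, rose by 1.12 ± 0.03 and 0.80 ± 0.03, and its responses differed by -0.32 ± 0.05 (limma adjusted p = 0.000241). Ppp1r15b, the constitutive subunit, fell by 0.29 ± 0.03 and 0.24 ± 0.03. The group mean of Dnajc3, also of this list, went with MG132 from 11.075 to 11.67 in control and from 11.135 to 11.595 in knockdown cells.

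Of 14 tested genes that belong to mTORC1 or act on it or on eIF4F, 8 rose and 2 fell in control and 7 rose and 4 fell in knockdown cells. Of all genes 16.8% rose and 19% fell in control and 16.4% and 24.3% in knockdown cells. Sesn2 and Ddit4, stress-induced inhibitors of mTORC1, rose by 1.18 ± 0.04 and 0.51 ± 0.05 in control and by 1.08 ± 0.04 and 0.68 ± 0.05 in knockdown cells. Mtor, the kinase itself, was lower in knockdown cells with MG132 (-0.35 ± 0.04, limma adjusted p = 6.73e-07), and Deptor, another inhibitor, was higher in knockdown cells with vehicle by 1.20 ± 0.08. In the difference of the responses 0 were more positive and 5 more negative, where 4.45% of all genes were more positive and 10.1% more negative. Among the 5 was Pdcd4, an inhibitor of eIF4A (-0.51 ± 0.14, limma adjusted p = 0.0192).

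Among 7 tested partners of poly(A) binding and recycling, 1 rose and 3 fell in control and 2 rose and 2 fell in knockdown cells. These were 4 called in each line, beside 35.8% and 40.7% of all genes and 60.7% and 63.8% of bright genes. Paip2b, which holds the poly(A)-binding protein, rose by 0.61 ± 0.03 and 0.54 ± 0.03, and Mcts1, a recycling factor, was higher in knockdown cells by 1.40 ± 0.08 with vehicle and 1.10 ± 0.08 with MG132 (limma adjusted p = 9.62e-11 and 2.64e-09). Of 8 elongation and release factors, 0 rose and 2 fell in control and 2 rose and 0 fell in knockdown cells, 2 called (25%) in each line, below those shares of all genes. Etf1, the release factor that reads stop codons, rose in knockdown cells by 0.24 ± 0.04, and Eef2k, the kinase that slows elongation, was higher there with vehicle by 0.40 ± 0.04 (limma adjusted p = 7.61e-07).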

How the data were processed

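Total RNA of 16 plates, extracted with Trizol and RNeasy per the labels' protocols, was hybridised to 1 Affymetrix array each after Ambion and Affymetrix whole-transcript labelling. The authors deposited log2 signals per probe set, given to 2 decimals. Per the submitters' processing notes RMA and Partek were used; the sources used here give no version or setting. Since RMA makes array distributions alike, it hides a common shift of most genes, and bright probe sets, as many members are, can show compressed changes.

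Of 35556 probe sets, the platform's annotation listed 23410, of which 21789 carried 1 symbol. The brightest per gene was used, which left 19938 genes. Sample titles gave the group and replicate number. With limma (version 3.58.1, under R 4.3.3), a model of 1 mean per group was fitted over the 16 arrays without a block. Its moderated tests were two-sided, with residual degrees of freedom of 12 and prior ones of 4.12, Benjamini-Hochberg adjusted across all genes, at 0.05. The model code was checked on simulated data. Figures were drawn with matplotlib 3.10.9 in Python 3.11.15.

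Values of every array are given for the members past the threshold with the 4 highest and 4 lowest fold changes of each comparison, for eIF2 subunits and for Eif4ebp genes. The other lists give up to 4 genes with the smallest p per comparison. Members and lists were chosen with earlier results of these data known, so none is independent support. Alternatives were a second quantile normalization, median centring, a filter at the 25th percentile, averaging the probe sets of a gene, fitting the compared groups alone, a trended robust prior, array weights, a replicate block, leaving out 4 arrays low on the within-group gradient and leaving out each array. Promoter sequences and names are from RefSeq GRCm38.p6.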

Additional observations from a re-analysis of the deposited data

Results flagged for a closer look

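On single arrays, 10 member genes had a value far from the other 3 of its group, by Dixon's criterion at the 95% level, which is 10 of 176 groups of 4 arrays, and chance gives about 1 in 20. Eif1b read 11.28 on knockdown vehicle 2, where the other 3 arrays read 11.30. Eif2s3x read 13.48 on control MG132 4 (nearest 13.56). Eif3m read 11.67 on knockdown MG132 1 (nearest 11.77). Eif4ebp1 read 12.38 on control vehicle 3 (nearest 12.50), and Eif4ebp2 read 11.69 on control vehicle 4 (nearest 11.61). Eif2b2 read 10.93 on knockdown vehicle 4 (nearest 10.88), and Eif3h read 13.50 on knockdown MG132 3 (nearest 13.44). Eif3i read 12.41 on control vehicle 1 (nearest 12.25). Eif4a1 read 13.92 on knockdown vehicle 2, where the other 3 arrays read 13.85, and Eif5a read 13.55 on knockdown vehicle 1 (nearest 13.60). The values have 2 decimals, so the Eif1b gap is 2 steps of that rounding.

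In 7 genes the MG132 response differed between the lines by the limma test of the difference itself. The differences, knockdown minus control on the log2 scale, were 0.24 for Eif1a, 0.24 for Eif1ad, 0.21 for Eif1ax, 0.21 for Eif4e, 0.16 for Eif2b3, 0.14 for Eif4enif1 and -0.24 for Eif5a2. Those of Eif1a, Eif1ad and Eif5a2 passed under all 24 alternative settings tried, and the other 4 were each lost under at least 1.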

How the results depend on the processing

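Of the member calls, 12 of 24 in the control response, 13 of 22 in the knockdown response, 13 of 17 and 15 of 22 in the line comparisons with vehicle and with MG132 (25 alternatives each) and 3 of 7 in the difference of the responses (24 alternatives) passed under every alternative. No call changed sign and passed. Median centring, which moves all control responses by -0.05 and knockdown responses by -0.06, lowered the members that rose from 14 to 6 and from 16 to 8, and the more positive responses from 6 to 3. Without the 4 arrays on the gradient 9 rose in control cells and 3 responses were more positive. Second quantile normalization, the 25th percentile filter, the trended robust prior and array weights each gave 2 more negative responses in place of 1, and leaving out each array gave 1 to 2. The sign of the Eif4e response in control cells turned with the mean of its probe sets (0.0017, limma adjusted p = 0.979). The cause of these shifts was not tested beyond the construction of each setting.

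With a replicate block, 14 members rose and 10 fell in control and 16 and 6 in knockdown cells, 4 were higher and 14 lower with vehicle, 9 and 13 with MG132, and 4 responses were more positive and 1 more negative. The correlation of deviations from the group means was -0.501 to 0.396 in the 24 pairs of same-numbered arrays (median 0.087, 10 over 0.1) and -0.511 to 0.603 in 72 other pairs (median -0.045, 21 over 0.1). As it was not over 0.1 in every same-numbered pair, and no label states a shared batch, the numbers were not taken to pair the arrays.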
